A study of Drosophila melanogaster with 60 samples.

Results

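The genes described here encode the subunits of the proteasome in the abdominal fat body of Drosophila melanogaster, the insect tissue that does the work of liver and fat. They were chosen by symbol: all genes named Prosalpha, Prosbeta, Rpt or Rpn followed by a number. The rule found 48 of the 13969 genes in the tables. Of these, 32 are the standard subunits (14 of the core and 18 of the cap) and 16 are paralogues with a T or an R after the number (11 of the core and 5 of the cap). RNA was measured in mated females about 3 days old, entrained for 5 days to 12 h of light and 12 h of dark. The wild-type strain w1118 was kept at 18 °C (24 libraries) or at 25 °C (24 libraries), and sampled at 12 zeitgeber times (ZT, hours after lights on) with 2 replicates each. The mutant Clk-Jrk carries a dominant-negative allele of the circadian activator gene Clock, backcrossed 7 times to w1118. It was kept at 25 °C and sampled at 6 times with 2 replicates each (12 libraries), and its libraries at 18 °C were not analysed here. Each library pooled the dissected abdominal fat tissue of 10 flies, which stays attached to the epidermis, and flies came from a pair of incubators with inverse light schedules. The mutation is present in all cells of the fly, so the groups do not separate the clock of the fat body from that of other tissues.

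The proteasome is the main protease of the cytosol and nucleus and destroys proteins that carry chains of ubiquitin. Its core is a barrel in which rings of alpha subunits form the gated ends and rings of beta subunits hold the proteolytic sites. The regulatory cap sits on the ends: its base holds the ring of Rpt ATPases that unfold the substrate, and its lid holds Rpn11, the enzyme that cuts ubiquitin off. In male germ cells of Drosophila several standard subunits are known to have testis-expressed paralogues, whose names carry a T or an R.

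Summed estimated counts lay between 4923858 and 25133564 per library for the wild type kept at 18 °C. They lay between 5808864 and 46590109 for the wild type kept at 25 °C, and between 10667764 and 28822277 for Clk-Jrk. Of the wild type at 18 °C, the replicate 1 libraries labelled ZT 2 and ZT 20 held identical values in every gene, so their time was unknown and both were left out (n = 22). Of the fat body markers looked for, plin1 and plin2 had no match by symbol. The 13 others had a median of at least 0.1 TPM in each group. So did all 7 Malpighian tubule and all 7 oenocyte markers, so this level does not mark fat body alone. Marker RNA of other tissues differed between libraries: the summed level of 32 ovary markers lay between 40.7 and 6090 TPM at 18 °C, between 323 and 17100 TPM in the wild type at 25 °C, and between 142 and 3310 TPM in the mutant. In 6 libraries, singled out in earlier work on these data, RNA of other tissues or of mitochondria stood apart, and the main counts are also given without them. The Clk gene itself had a median of 3.22 TPM in Clk-Jrk and 4.12 TPM in wild type at the same times, which checks nothing about an allele that changes the protein. Each sample is a separate dissection of pooled flies per the labels, and the p-values measure only the spread between these samples. In such bulk samples, fewer cells of a type and less RNA per cell cannot be told apart.

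All 32 standard subunit genes were expressed in every group, and core subunits stood above cap subunits. TPM, the share of a library's transcripts after division by transcript length, allows levels of different genes to be compared within a library. Group medians of the core genes had a middle value of 286 TPM in wild type at 18 °C, 253 TPM in wild type at 25 °C and 248 TPM in Clk-Jrk. For the cap genes the corresponding values were 138, 130 and 114 TPM. Together the standard genes and their paralogues took a median of 0.681% of all TPM at 18 °C, 0.641% at 25 °C and 0.616% in Clk-Jrk.

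**Figure D1:**
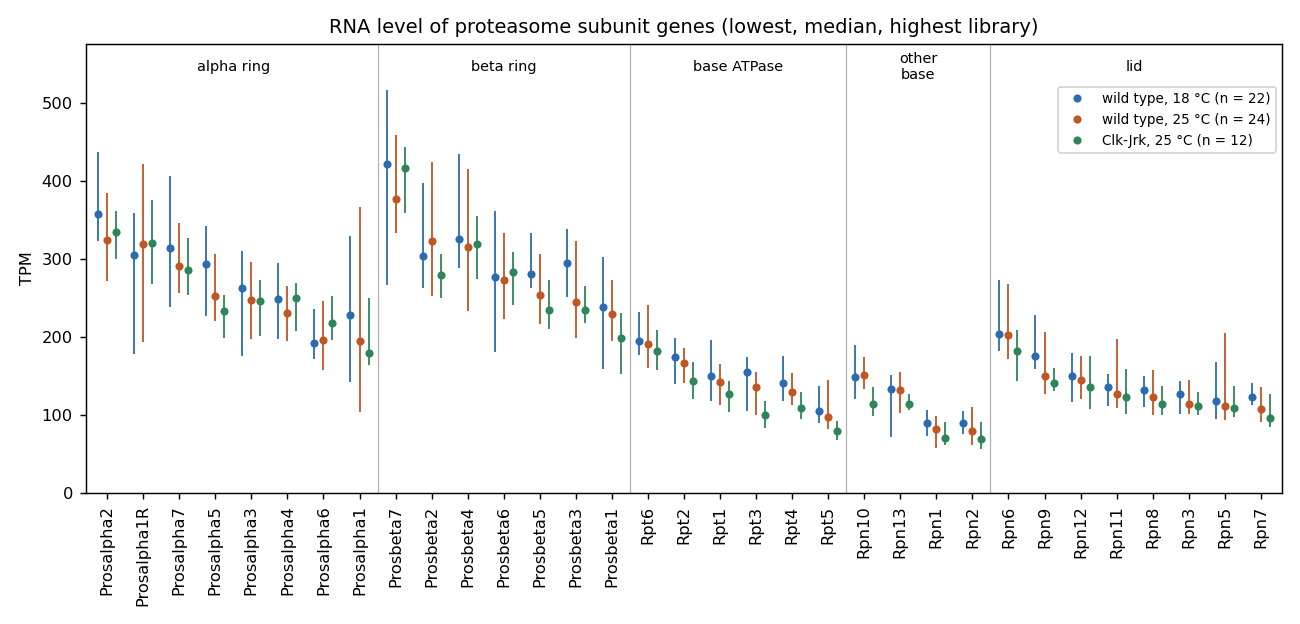
RNA level (TPM, linear axis) of the 32 standard proteasome subunit genes and Prosalpha1R in the 3 groups. Points are medians and bars run from the lowest to the highest library. Alpha and beta subunits lie above nearly all base and lid subunits, from 421 TPM for Prosbeta7 at 18 °C down to 68.5 TPM for Rpn2 in Clk-Jrk.

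The highest core gene taken singly was Prosbeta7 (FBgn0250746, 3R:5357012-5358364 in BDGP6.54), a beta subunit without proteolytic activity. The lowest, median and highest library had 266, 421 and 516 TPM at 18 °C, then 333, 377 and 459 TPM in wild type at 25 °C, and 359, 416 and 443 TPM in Clk-Jrk. These ranges overlapped in all 3 groups. The lowest standard core subunit at 18 °C was Prosalpha6 (172, 192 and 236 TPM as lowest, median and highest). In wild type at 25 °C Prosalpha6 had a median of 196 TPM and Prosalpha1 one of 195 TPM, which lay well inside each other's range. Prosalpha1 was the lowest in Clk-Jrk, with a median of 179 TPM. Its reads are shared with its near-identical copy Prosalpha1R, so its rank is uncertain. The sum of both copies had medians of 514 TPM at 18 °C, 502 TPM in wild type at 25 °C and 526 TPM in Clk-Jrk. These lay above the medians of Prosbeta7. The 3 beta subunits with proteolytic sites had medians of 229 TPM for Prosbeta1, 323 TPM for Prosbeta2 and 254 TPM for Prosbeta5 in wild type at 25 °C. Their ranges overlapped between libraries, but within each of these libraries Prosbeta2 was above both others.

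Among the cap subunits Rpn6, a lid subunit that braces lid, base and core, was the highest, with medians of 204, 202 and 182 TPM in wild type at 18 °C, wild type at 25 °C and Clk-Jrk. Next to it stood the ATPase Rpt6, with 194, 191 and 182 TPM in the same order, and the ranges of Rpn6 and Rpt6 overlapped in every group. The lowest were Rpn1 and Rpn2, the large scaffold proteins of the base. Rpn1 had medians of 89.4, 81.2 and 70.4 TPM, and Rpn2 of 89.0, 79.3 and 68.5 TPM. The pair did not differ beyond the spread between libraries. The ubiquitin receptors Rpn10 and Rpn13 lay higher than these scaffolds, at 151 and 132 TPM in wild type at 25 °C, and Rpn11 had 127 TPM there.

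The excess of core over cap RNA was taken within each library as the mean log2 TPM of the core genes minus that of the cap genes, with Prosalpha1 and its near-identical copy Prosalpha1R summed. This difference does not depend on how libraries are scaled to each other. At 18 °C its lowest, median and highest values were 1.02, 1.13 and 1.23 (n = 22), and in the wild type at 25 °C they were 0.95, 1.12 and 1.31 (n = 24). On the linear scale the medians were 2.19-fold and 2.18-fold. The libraries at 18 °C lay within the range at 25 °C, and 12 of 22 were above its median. The mean was higher at 18 °C than at 25 °C at 5 of 12 times.

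In Clk-Jrk the difference ran from 1.17 through 1.29 to 1.41 (n = 12), a median of 2.45-fold. In wild type at the same 6 times it ran from 1.02 through 1.10 to 1.23, a median of 2.14-fold. Of the 12 mutant libraries, 9 lay above the highest of these wild-type libraries and 12 above their median. The mutant mean was higher at 6 of 6 times. Among all 24 wild-type libraries at 25 °C the highest had 1.31, at ZT 8 in replicate 1, above the mutant median of 1.29. The mutant values were highest at ZT 22, at 1.38 and 1.41 in replicates 1 and 2, and at ZT 2, at 1.37 and 1.33. The replicate 2 library at ZT 22 is 1 of the 6 that stood apart. In mean log2 TPM the core was at a median of 8.11 in both groups, and the cap at 6.81 in Clk-Jrk and 6.99 in wild type. As a geometric mean over genes, the base ATPases had a median of 119 TPM in the mutant and 138 TPM in wild type, the other base subunits 88.8 and 105 TPM, and the lid 122 and 132 TPM. No p is given for a score over a chosen list. Replicate 1 of wild type at 25 °C had a median difference of 1.21 over its 12 times and replicate 2 one of 1.09. Without the 6 libraries that stood apart the medians of the 3 groups were 1.13, 1.12 and 1.29.

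**Figure D2:**
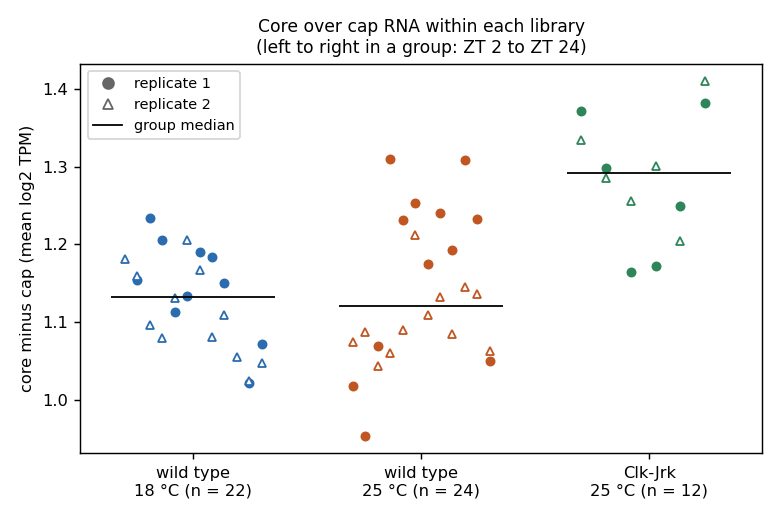
Core minus cap RNA (difference of mean log2 TPM) in each of 58 libraries, by group and, within a group, from ZT 2 to ZT 24. Filled circles are replicate 1, open triangles replicate 2 and lines group medians. The Clk-Jrk median of 1.29 lies above the wild-type medians of 1.13 and 1.12.

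The paralogue Prosalpha1R went against the testis-specific sense of its name. Prosalpha1R (FBgn0050382, 2R:7830413-7831771 in BDGP6.54, minus strand) lies 1734 bases from Prosalpha1 (FBgn0263121, 2R:7827303-7828678, same strand), which encodes an alpha ring subunit. Its lowest, median and highest levels were 178, 305 and 358 TPM at 18 °C, then 193, 319 and 421 TPM in wild type at 25 °C, and 268, 320 and 375 TPM in Clk-Jrk. Its medians were thus above those of Prosalpha1, at 228, 195 and 179 TPM. The split between these copies is uncertain: their estimated counts were not within 0.01 of a whole number in 57 of 58 libraries, so reads were shared out between them. The share given to Prosalpha1R had medians of 58.3%, 63.2% and 62.5% in the 3 groups and ran from 35.1% to 80.1% over the wild-type libraries. The sum of both had medians of 514 TPM at 18 °C, 502 TPM in wild type at 25 °C and 526 TPM in Clk-Jrk.

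The other 15 paralogues were at or near 0 in these females, and none passed the filter on low counts. Of these, 6 were at 0 in all 58 libraries: Prosalpha4T1, Prosbeta4R1, Prosbeta5R1, Prosbeta5R2, Rpn12R and Rpn13R. A count of 0 allows up to 3 of the 724287682 estimated counts over all libraries, a limit that covers counting error only. A further 7 had between 2 and 16 counts over all libraries: Prosalpha6T and Prosbeta4R2 had 2 each, Prosbeta2R1 had 3, Rpt4R had 5, Prosalpha3T had 10, Prosbeta2R2 had 15 and Prosalpha4T2 had 16. No library held more than 2 counts of any of these 7. Their standard namesakes had between 109844 and 176082 counts over the same libraries.

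The other 2 paralogues, both of base ATPases, were seen at low levels in most libraries. Rpt3R had 205 counts in 53 libraries and medians of 0.244, 0.200 and 0.284 TPM at 18 °C, in wild type at 25 °C and in Clk-Jrk. Rpt6R had 393 counts in 55 libraries and medians of 0.285, 0.496 and 0.548 TPM. Mean TPM of Rpt6R was at most 0.311% of that of Rpt6, and mean TPM of Rpt3R at most 0.273% of that of Rpt3. Without the filter on low counts, Rpt6R was lower at 18 °C than at 25 °C, with a log2 difference of -1.18 (edgeR adjusted p = 0.0104). In that fit 2341 of 13099 genes were lower. Libraries of the groups overlapped for Rpt6R. In wild type at 25 °C replicate 1 was above replicate 2 at each time from ZT 8 to ZT 24, and below it at ZT 2, 4 and 6. At ZT 22 the replicates had 1.39 and 0.143 TPM. Of 23 testis markers, 17, 18 and 19 had a median under 0.1 TPM in the 3 groups, and their summed level had medians of 7.12, 9.08 and 4.22 TPM.

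Between genotypes at 25 °C, 18 of 33 tested members were higher in Clk-Jrk than in wild type and 0 were lower, with counts scaled by TMM (12 and 12 libraries at the same 6 times, edgeR quasi-likelihood test, Benjamini-Hochberg adjusted p under 0.05 over 9289 genes). The same call was made for 18.5% of all genes as higher, 24.9% as lower and 43.4% in either direction. At an unadjusted p under 0.05, 22 members were higher and 0 lower, while 4798 of 9289 genes passed in either direction. DESeq2 called 22 members higher and 0 lower, and 2004 higher and 2435 lower over all genes. The 33 tested members are the 32 standard genes and Prosalpha1R. The median log2 difference of the members was 0.20, against -0.08 for all genes. Without the 6 libraries that stood apart, 16 members were higher.

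The direction of these calls depended on the scaling. On the log2(TPM + 1) scale with limma, 2 members were higher in Clk-Jrk, Prosalpha6 and Prosbeta7, and 11 were lower, while 6.76% of all genes were higher and 48.8% lower. The median of the members was then -0.09 and that of all genes -0.28. Of the genes called, 42.6% were higher with TMM and 12.2% with TPM. Relative to the median of all genes, the core stood 0.41 higher and the cap 0.23 higher with TMM, and the core 0.31 and the cap 0.13 higher with TPM. The 10 most abundant genes took a median of 25.4% of TPM in Clk-Jrk and 21.4% in wild type at the same times, and the yolk protein genes 13.1% and 8.65%. The part of these abundant genes in the result was not tested.

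With TMM, 11 of 15 core genes and 7 of 18 cap genes were higher. In the alpha ring 6 of 7 standard genes were higher with a median log2 difference of 0.33, and in the beta ring 4 of 7 with a median of 0.30. In the lid 6 of 8 were higher with a median of 0.21. Of the 6 base ATPases only Rpt6 passed, and the median was 0.07. Of the 4 other base subunits 0 passed with edgeR at either an adjusted or an unadjusted p under 0.05, DESeq2 included. On the log2(TPM + 1) scale with limma, the cap had 9 of 18 genes lower, among them 5 of the 6 ATPases, and the core had 2 higher and 2 lower.

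Prosalpha6 (FBgn0250843, 2L:10221351-10222546) encodes an alpha ring subunit and was the one member whose groups did not overlap. Its CPM, counts scaled to a fixed library total after TMM, ran from 164 through 214 to 273 in Clk-Jrk and from 124 through 149 to 159 in wild type. All mutant libraries were above all wild-type libraries, as was the case for 1.57% of all genes, while 0.42% were separated the other way. The difference was 0.46 ± 0.06 (SE) on the log2 scale, 1.38-fold, higher at 6 of 6 times (edgeR adjusted p = 4.51e-05). On the log2(TPM + 1) scale it was 0.16 (limma adjusted p = 0.00885), and the TPM ranges of 196 to 252 and 174 to 202 overlapped.

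Prosalpha4 (FBgn0004066, X:16276270-16277587), also of the alpha ring, ran from 232 through 262 to 391 CPM in Clk-Jrk and from 171 through 206 to 242 CPM in wild type. The ranges overlapped at their edges. Its difference was 0.39 ± 0.07, 1.31-fold (edgeR adjusted p = 0.000429), and it was 0.09 on the TPM scale, where it did not pass. Prosbeta7 ran from 317 through 392 to 549 CPM in Clk-Jrk and from 232 through 294 to 349 CPM in wild type. All mutant libraries were above the wild-type median, and the groups overlapped at their edges. It was higher by 0.40 ± 0.07, 1.32-fold, at 6 of 6 times (edgeR adjusted p = 0.000656), and by 0.12 on the TPM scale (limma adjusted p = 0.0348).

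Another 5 of the 18 genes, all of the core, had the next smallest adjusted p. Prosbeta6, a beta subunit without proteolytic activity, had 193, 231 and 343 CPM in Clk-Jrk and 134, 181 and 210 CPM in wild type (lowest, median, highest), a difference of 0.39 ± 0.07. Prosalpha2 had 224, 278 and 382 CPM against 174, 209 and 256 CPM, a difference of 0.33 ± 0.06. For both, the lowest mutant library was above the wild-type median. Prosalpha7 had 204, 253 and 357 CPM against 163, 205 and 226 CPM, a difference of 0.29 ± 0.06. Prosbeta4 had 161, 218 and 289 CPM against 135, 153 and 203 CPM, a difference of 0.35 ± 0.08. The groups overlapped for both. Prosbeta3 had 152, 198 and 272 CPM against 131, 149 and 180 CPM, a difference of 0.30 ± 0.07. The edgeR adjusted p-values of these genes ran from 0.000721 for Prosbeta6 to 0.00277 for Prosbeta3. On the TPM scale the differences were 0.09, 0.03, -0.01, 0.06 and 0.00 in the order given, and none passed.

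The summed counts of Prosalpha1 and Prosalpha1R were higher by 0.35 ± 0.06, 1.27-fold (edgeR adjusted p = 0.000652). Prosalpha1R taken alone was higher by 0.33 ± 0.08 and Prosalpha1 by 0.37 ± 0.15, of which the first passed (edgeR adjusted p = 0.00323 and 0.0522).

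Lid subunits with a passed test were higher by 0.17 to 0.25 on the log2 scale. Rpn11 ran from 117 through 140 to 190 CPM in Clk-Jrk and from 103 through 119 to 136 CPM in wild type, a difference of 0.23 ± 0.06 (edgeR adjusted p = 0.00773). Its partner in the lid, Rpn8, was higher by 0.20 ± 0.07, and the lid gene with the largest difference was Rpn12, at 0.25 ± 0.06. The groups overlapped for all 3. On the TPM scale these differences were -0.07, -0.09 and -0.05, and none passed.

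Rpt6 ran from 209 through 254 to 332 CPM in Clk-Jrk and from 173 through 203 to 239 CPM in wild type, a difference of 0.24 ± 0.07 (edgeR adjusted p = 0.0114). Its estimated counts were not within 0.01 of a whole number in 56 of 58 libraries, and 13% of its exonic bases overlap CG1801 on the other strand, so its reads could be shared. Rpt3, by contrast, ran from 129 through 142 to 200 CPM in Clk-Jrk and from 108 through 150 to 200 CPM in wild type. The ranges nearly coincided, and the difference was -0.11 with a 95% interval from -0.29 to 0.07. For Rpt5 the difference was -0.05 (-0.14 to 0.05), for Rpt4 0.04 (-0.07 to 0.16) and for Rpn10 -0.07 (-0.19 to 0.04), and none of the 4 passed. On the log2(TPM + 1) scale all 4 were lower in Clk-Jrk with limma, by values from -0.36 for Rpt3 to -0.25 for Rpt4.

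**Figure D3:**
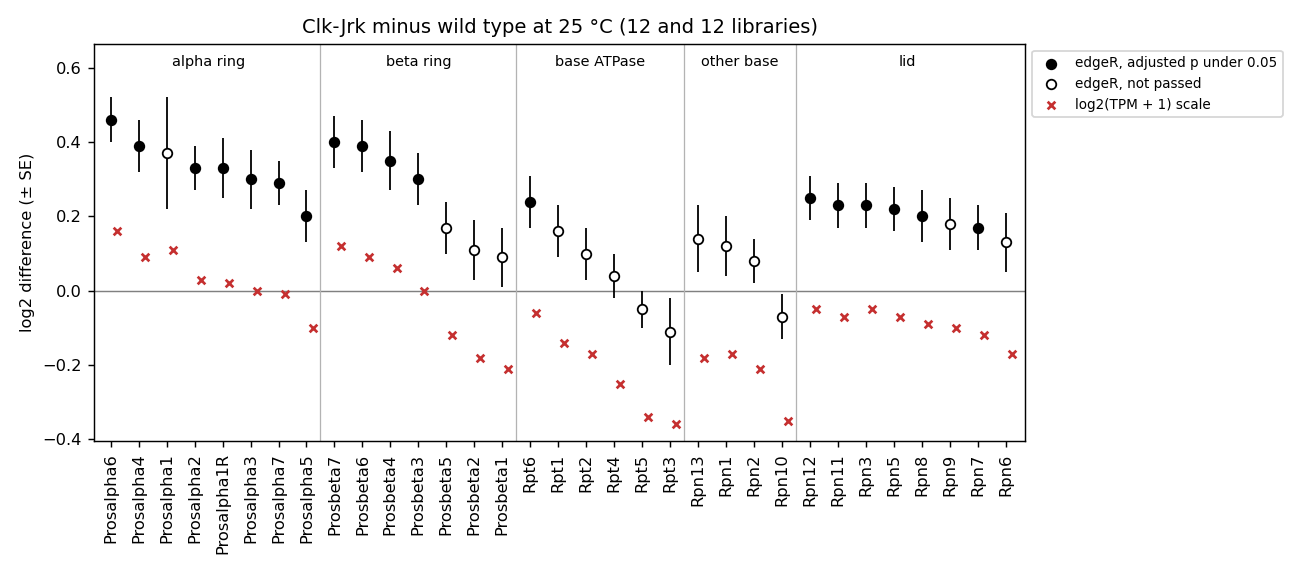
Log2 difference between Clk-Jrk and wild type at 25 °C for the 33 tested members, by place in the proteasome. Circles with SE bars are edgeR fits of TMM-scaled counts (filled: adjusted p under 0.05) and crosses are differences in log2(TPM + 1), which lie lower for every gene. Prosalpha6 is at 0.46 and 0.16 on these scales and Rpt3 at -0.11 and -0.36.

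The replicate series carried the calls unequally. With replicate 2 by itself 8 members were higher in Clk-Jrk, and with replicate 1 by itself 0 (edgeR; 9 before adjustment at p under 0.05), with medians of 0.26 and 0.19. In those fits 13.4% and 6.38% of all genes were higher. For the core the median log2 difference was 0.40 with replicate 2 and 0.26 with replicate 1, and for the cap it was 0.14 and 0.17. Marker RNA also differed: 11 of 22 muscle markers and 6 of 7 Malpighian tubule markers were lower in Clk-Jrk. Of 32 ovary markers 8 were lower and 2 higher. Of the fat body markers 5 of 13 were higher and 2 lower, and 4 of 10 haemocyte and 3 of 7 oenocyte markers were higher. The summed muscle markers had a median of 2680 TPM in Clk-Jrk and 4170 TPM in wild type at the same times. With the marker means as covariates 18 members were called higher, the same 18 genes as without them, against 18.6% of all genes.

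Between temperatures in wild type, 5 of 33 members were higher at 18 °C and 0 were lower (22 and 24 libraries, edgeR quasi-likelihood test, adjusted p under 0.05). Among all genes 23.3% were higher, 25.3% lower and 48.5% either. With limma on log2(TPM + 1), 10 members were higher, against 20.1% of all genes, and 0 lower, against 17.1%. The groups overlapped for all 33 members; over all genes 0.0431% were apart in each direction. At an unadjusted p under 0.05, 8 members were higher and 0 lower, while 5109 of 9289 genes passed in either direction. DESeq2 called 6 members higher and 0 lower, and 2246 higher and 2533 lower over all genes. The median log2 difference of the members was 0.08, against -0.02 for all genes. It was 0.08 in the core, where 2 of 15 passed, and 0.08 in the cap, where 3 of 18 passed. This comparison and the previous one share wild-type libraries at 25 °C.

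Prosbeta3 (FBgn0026380, 3R:9005313-9006226), a beta ring subunit, had the smallest adjusted p. It ran from 126 through 192 to 226 CPM at 18 °C and from 117 through 157 to 210 CPM at 25 °C. The ranges overlapped widely, and the libraries at 18 °C lay toward the upper end. The difference was 0.26 ± 0.05, 1.20-fold, higher at 10 of 12 times (edgeR adjusted p = 0.00048). It was 0.08 in replicate 1 alone and 0.35 in replicate 2 alone.

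The other 4 were Rpn9, Rpn7, Rpn2 and Prosalpha2. Rpn9, a lid subunit, ran from 153 through 194 to 221 CPM at 18 °C and from 134 through 167 to 198 CPM at 25 °C, a difference of 0.21 ± 0.05 (edgeR adjusted p = 0.00127). Rpn7, also of the lid, ran from 94.4 through 137 to 164 CPM and from 103 through 117 to 151 CPM, a difference of 0.18 ± 0.06 (edgeR adjusted p = 0.016). For both, the groups overlapped. Rpn2 ran from 186 through 256 to 293 CPM and from 194 through 223 to 280 CPM, a difference of 0.14 ± 0.06. Prosalpha2 ran from 179 through 236 to 278 CPM and from 174 through 213 to 279 CPM, a difference of 0.13 ± 0.05. The edgeR adjusted p was 0.0405 for Rpn2 and 0.04 for Prosalpha2, and neither passed without the 6 libraries that stood apart, which left 3 members called.

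For the 28 members that did not pass, the intervals bound the difference. Prosbeta6 differed by 0.00 with a 95% interval from -0.17 to 0.16, Rpn5 by 0.00 (-0.09 to 0.09) and Prosalpha6 by -0.01 (-0.12 to 0.10). The widest was that of Rpn13, at -0.08 (-0.31 to 0.16). The summed Prosalpha1 and Prosalpha1R differed by 0.02 ± 0.05 (edgeR adjusted p = 0.716).

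**Figure D4:**
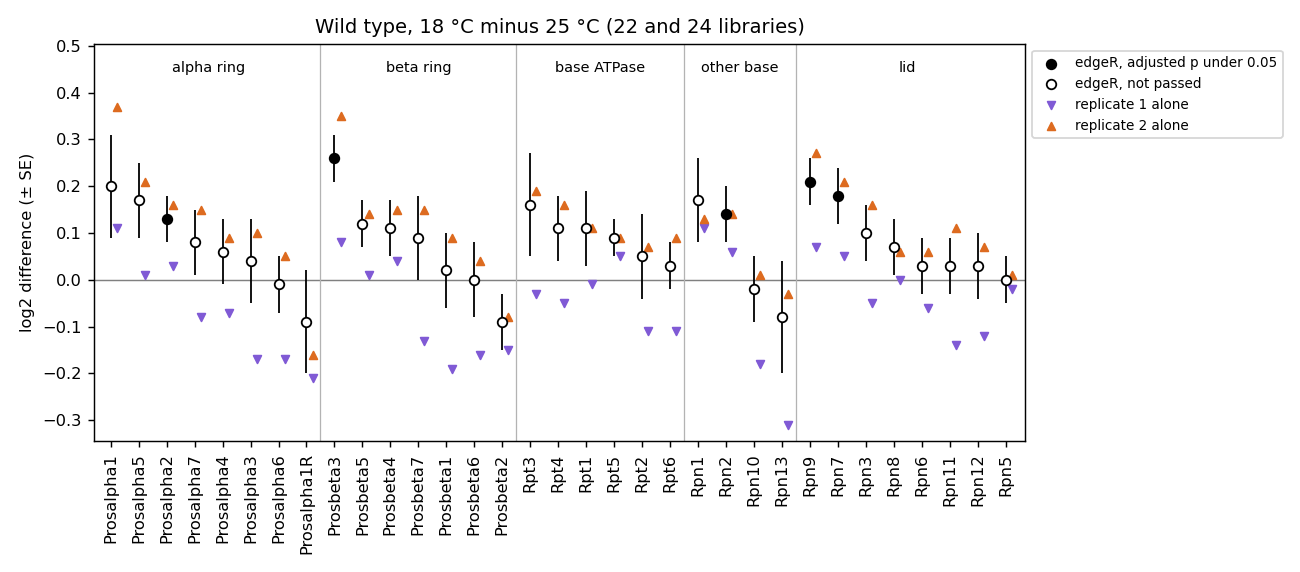
Log2 difference between 18 °C and 25 °C in wild type for the 33 tested members, by place in the proteasome. Circles with SE bars are edgeR fits (filled: adjusted p under 0.05) and triangles are the values of replicate 1 and replicate 2 alone. Prosbeta3 is highest at 0.26, and replicate 2 gives higher values than replicate 1 for every gene.

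The temperature calls rested on replicate 2. That series by itself had 6 members higher, while replicate 1 by itself had 0 higher and 0 lower (edgeR; before adjustment at p under 0.05, 0 higher and 1 lower), with member medians of 0.11 and -0.05. Over all genes 16.4% and 17.6% were higher in these fits. At 18 °C the replicates themselves stood apart: the mean log2 CPM of the core had a median of 7.44 in the 10 libraries of replicate 1 and 7.73 in the 12 of replicate 2. The corresponding values for the cap were 7.30 and 7.55. At each of the 10 times with both replicates, replicate 2 was above replicate 1 for core and cap alike. In wild type at 25 °C the core medians were 7.57 and 7.48 and the cap medians 7.28 and 7.37, and replicate 2 was the higher at 7 of 12 times for the core and 11 of 12 for the cap. Marker RNA moved with temperature: of 32 ovary markers 26 fell at the lower temperature, the median log2 difference being -2.14, while 13 of 22 muscle markers and 8 of 10 haemocyte markers were higher. With marker means as covariates no member was called (0 of 33, edgeR; 3 higher and 2 lower at an unadjusted p under 0.05). In that fit the calls over all genes also dropped, to 1139 from 4508, with 7.29% higher. The part of these cells in the result was not tested further.

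Over the day, 0 of 33 members passed the test for a 24 h rhythm in wild type at 25 °C (edgeR, adjusted p under 0.05), where 0.398% of all genes did. At an unadjusted p under 0.05, 17 of 33 passed, 13 of the core and 4 of the cap, against 8.95% of all genes. The fitted peaks of those 17 lay between ZT 13.8 and ZT 15.9, early in the night, and 31 of the 33 members had their peak between ZT 12 and ZT 18. Prosbeta3 came nearest to passing, with an amplitude of 0.22 ± 0.05 (peak minus mean, log2 CPM), a peak at ZT 14.7 ± 0.8 h, a peak 1.35-fold over the trough and an edgeR adjusted p of 0.126. Prosalpha6 followed with an amplitude of 0.16 ± 0.04 and a peak at ZT 14.1 ± 0.9 h (edgeR adjusted p = 0.274). DESeq2 called both of these and no other member, with adjusted p-values of 0.00438 and 0.0176. Over all genes DESeq2 called 103 of 9289, against 37 with edgeR. The members share libraries, so their common peak time is a description. The labels used here do not name the incubator of each library. Time of day and incubator therefore cannot be told apart. With an added step between ZT 2 to 12 and ZT 14 to 24, 3 of 9289 genes passed (edgeR), against 37 without it. Rhythms of 1.5-fold were simulated in 50 genes drawn at random from the tested genes. They were recovered in 14% of cases in wild type at 25 °C, 8% at 18 °C and 2% in Clk-Jrk. Weak rhythms of such genes could thus be missed in every group. Recovery was not measured for genes with the level and spread of the members.

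The mean log2 CPM of the core was 7.76 and 7.92 in the 2 replicates at ZT 12, the highest of each series, against 7.22 and 7.49 at ZT 4 and 7.29 and 7.35 at ZT 24. For the cap the values at ZT 12 were 7.48 and 7.69, again the highest of each series. At ZT 14 the core was at 7.52 and 7.39, below the values at ZT 12 in both replicates. Flies of ZT 12 and ZT 14 may have come from different incubators. The core at later times is given next. It was at 7.55 and 7.69 at ZT 16, at 7.67 and 7.64 at ZT 18, and at 7.67 and 7.79 at ZT 20.

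At 18 °C 0 of 33 members passed (edgeR), where 1.94% of all genes did. At an unadjusted p under 0.05 again 0 passed, against 15.3% of all genes. DESeq2 called 0 members and 512 of all 9289 genes. The median amplitude of the members was 0.06 there and 0.13 at 25 °C, against 0.16 and 0.14 for all genes. The amplitude of Prosbeta3 was 0.02 ± 0.06 at 18 °C. In Clk-Jrk 0 of 33 members passed, and so did 0 of all 9288 genes tested (edgeR). DESeq2 called 231 of these genes and 1 member, Prosalpha1, whose reads are shared with its copy. At an unadjusted p under 0.05 (edgeR), 3 members passed, against 15.4% of all genes. Those 3 were Prosalpha1, Prosbeta2 and Prosbeta4, with fitted peaks between ZT 1.0 and ZT 2.2. In Clk-Jrk 30 of 33 fitted peaks lay between ZT 18 and ZT 6. The highest core value, 8.28, was that of replicate 2 at ZT 22, 1 of the 6 libraries that stood apart. In replicate 1 the highest core value was 7.96, at ZT 2.

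The difference in rhythm was tested directly. Between temperatures 0 of 33 members passed (edgeR), where 0.118% of all genes did. At an unadjusted p under 0.05, 8 members passed, against 14% of all genes. The smallest adjusted p was 0.292, that of Rpn9. Between genotypes 0 of 33 members passed, and so did 0 of all 9289 genes. At an unadjusted p under 0.05, 3 members passed (Prosalpha6, Prosbeta2 and Prosbeta4), against 9.71% of all genes. DESeq2 called 0 members in both comparisons, against 45 and 27 of all 9289 genes. A rhythm in 1 group and not in another is therefore not shown for any subunit gene.

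**Figure D5:**
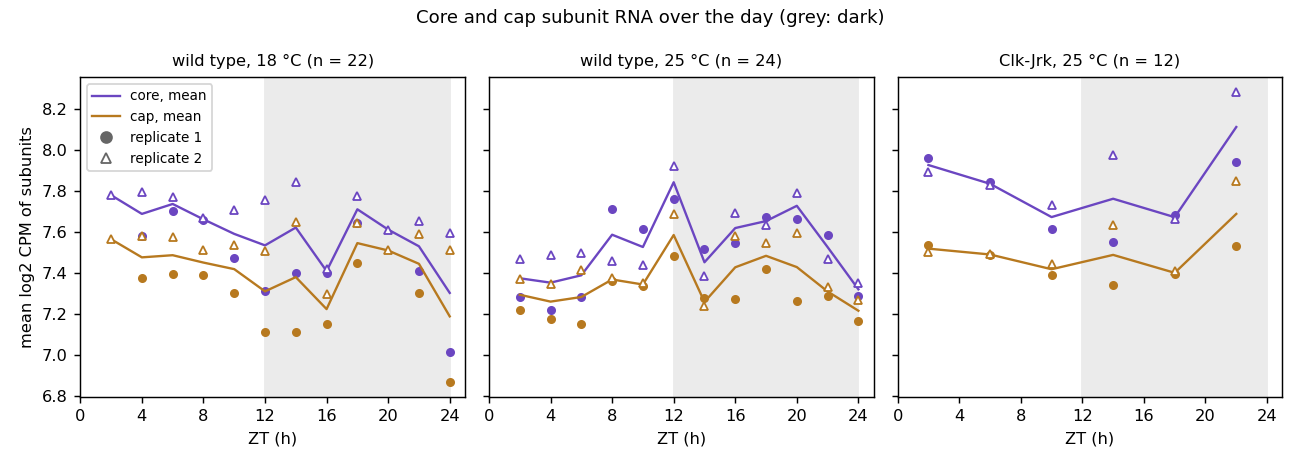
Mean log2 CPM of core and cap subunit genes over the day in the 3 groups, with the dark phase in grey. Circles are replicate 1, triangles replicate 2 and lines the mean of the replicates. In wild type at 25 °C both replicates are highest at ZT 12, at 7.76 and 7.92 for the core.

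Between temperatures, where 48.5% of all genes were called, of 13 tested genes for ubiquitin, its activating enzyme and its conjugating enzymes 2 were higher at 18 °C and 4 lower. Ubi-p63E, a polyubiquitin gene whose reads can be shared with other ubiquitin genes, ran from 990 through 1310 to 2070 CPM at 18 °C and from 698 through 936 to 1270 CPM at 25 °C. It was 1.45-fold higher, by 0.54 ± 0.07 (edgeR adjusted p = 4.6e-06). The conjugating enzyme genes Ubc4 and vih were lower at 18 °C, at -0.41 ± 0.07 and -0.56 ± 0.16. Between genotypes, where 43.4% of all genes were called, 4 of these genes were higher in Clk-Jrk and 4 lower with TMM. The conjugating enzyme genes ben and Ubc2 had differences of -0.70 ± 0.08 and -0.60 ± 0.08, and RpS27A, a ribosomal protein made as a fusion with ubiquitin, one of 0.35 ± 0.07. On the log2(TPM + 1) scale the 4 higher genes (RpS27A, Ubc10, RpL40 and Ubc7) were at 0.06, -0.03, 0.01 and -0.03.

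Of 10 tested assembly factors, activators, shuttles and associated deubiquitinases, 1 was higher and 2 lower at 18 °C, and 1 was higher and 1 lower in Clk-Jrk. Uch-L5, a deubiquitinase that binds the cap, was higher in both comparisons, by 0.25 ± 0.09 at 18 °C and by 0.58 ± 0.09 (1.49-fold) in Clk-Jrk. At 18 °C rngo, a shuttle-type ubiquitin receptor, and REG, an activator that binds the core in place of the cap, were lower, at -0.20 ± 0.04 and -0.39 ± 0.12. In Clk-Jrk ntc, an F-box protein known for its work on proteasomes in male germ cells, was lower, at -0.80 ± 0.10. Pomp, the maturation factor of the core, passed in neither comparison, with 0.08 ± 0.10 and -0.16 ± 0.09. The small lid subunit Sem1, whose symbol the naming rule does not match, passed in neither, with -0.15 ± 0.08 and 0.03 ± 0.09.

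The p97 segregase TER94, which pulls ubiquitinated proteins apart ahead of the proteasome, and its cofactors had 3 of 6 genes higher and 1 lower at 18 °C, and 5 of 6 higher in Clk-Jrk. TER94 itself had 0.10 ± 0.06 at 18 °C, which did not pass, and 0.27 ± 0.07 in Clk-Jrk (edgeR adjusted p = 0.00546). The COP9 signalosome, a relative of the lid that removes Nedd8 from cullins, had 2 of 7 genes lower at 18 °C (CSN7 and CSN8) and 4 of 7 higher in Clk-Jrk, with CSN6 at 0.50 ± 0.10. Among all genes 18.5% were higher in Clk-Jrk and 24.9% lower. On the log2(TPM + 1) scale TER94 was at -0.03 and CSN6 at 0.21 in Clk-Jrk. CSN6 had the largest difference of its list with TMM, and the other genes of both lists are not given on the TPM scale.

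Of the 13 tested genes of the cullin ligase core 4 were lower at 18 °C, and in Clk-Jrk 1 was higher and 1 lower. Cul6 ran from 1.39 through 2.55 to 2.94 CPM in Clk-Jrk and from 7.95 through 10.1 to 13.2 CPM in wild type, with no overlap. Its difference was -2.25 ± 0.13 in Clk-Jrk and -0.81 ± 0.13 at 18 °C (edgeR adjusted p = 2.89e-08 and 3.44e-05). The CncC list, named for a transcription factor known to raise proteasome genes in flies, had cnc itself at -0.05 ± 0.06 at 18 °C and -0.30 ± 0.12 in Clk-Jrk, neither of which passed. Its other genes gave 2 higher and 1 lower in each comparison, with Gclc and Gclm higher and maf-S lower at 18 °C, and GstD1 and Keap1 higher and Gclm lower in Clk-Jrk. Of these lists, Gclc at 18 °C was the one gene that passed the rhythm test in any group (edgeR).

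Outside the pathway, the CCT chaperonin, a smaller complex that folds actin and tubulin, had 6 of 8 genes lower at 18 °C with a median of -0.34. In Clk-Jrk 1 of 8 was lower, CCT2, at -0.57 ± 0.16. The replicates went opposite ways for CCT1 in Clk-Jrk, at 0.49 in replicate 1 alone and -0.47 in replicate 2 alone.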

How the data were processed

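RNA with poly(A) was sequenced from 60 samples, and the labels name kallisto 0.46.2, per the submitters' processing notes. Per the labels, the kit was TruSeq, and the sources used here give neither the transcriptome release nor whether counting used strand. The authors deposited unscaled estimated counts for each gene, and TPM, scaled for length and library total. Whole numbers, to within 0.001, made up 80.5% of the estimated counts above 0. Gene names and positions come from the BDGP6.54 annotation, a separate source, which named 13949 of 13969 genes. There, 13 standard members share exonic bases with another gene, and only Rpt6 shares more than 10%.

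Members, gene lists and tests were chosen with earlier results of these data known, and so were the 6 libraries left out in an alternative (from replicate 1, the 25 °C wild type at ZT 2, 4, 10 and 14 and the 18 °C wild type at ZT 24; from replicate 2, Clk-Jrk at ZT 22). Samples were grouped by the labels, and columns without a replicate number were taken as replicate 1. Estimated counts were rounded, genes kept by filterByExpr over the 3 groups (9289 genes, 58 libraries), scaled by TMM and tested by edgeR 4.0.16 quasi-likelihood tests (R 4.3.3). Levels were contrasts of group means over shared ZT. Rhythm was tested as a cosine and sine of 24 h, and its difference as an interaction. Replicate series alone were fitted with group and ZT as additive terms. Amplitudes come from least squares on log2 CPM with a prior count of 2. Intervals are 95% intervals, 1.96 SE on each side. DESeq2 1.42.0 and limma 3.58.1 (log2(TPM + 1), and a pseudocount of 0.1) were alternatives, as were RLE size factors and no filter. Another used the marker means of ovary, gut and muscle as covariates. For the rhythm tests, an added step between ZT 2 to 12 and ZT 14 to 24 was another. Chosen after seeing the data were the additive design, the summed copies and each ZT or library left out. Named with values were up to 8 members per comparison and direction by adjusted p, the highest and lowest of core and cap, all paralogues, and up to 3 genes per other list; Rpn8, Rpn11, Rpn12, Rpt3, Rpt4, Rpt5, Rpt6, Rpn10, Rpn13, the catalytic beta subunits, Pomp, Sem1, TER94, cnc, CCT1 and members with intervals were added after their values were seen. The fits were tested on simulated data. A planned search of promoters for motifs was not run, as no sequence was used here. Python 3.11.15 was used for tables.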

Additional observations from a re-analysis of the deposited data

How the results depend on the processing

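Of the counts between temperatures, 5 higher became 3 with no filter on low counts (1 lower, Rpt6R), 10 with limma on log2(TPM + 1) or log2(TPM + 0.1), 3 without the 6 libraries, 0 with marker means as covariates, 2 at an adjusted p under 0.01, and 0 to 6 with a replicate left out. With a ZT left out they ran from 2 (ZT 4 or 6) through 3 (ZT 2, 8, 10, 18 or 22) to 8 (ZT 12 or 20), and the median from 0.05 to 0.11. The median of 0.08 became -0.05 without replicate 2. Between genotypes, 18 higher became 2 and 0 lower became 11 with limma on either TPM scale, with a median of -0.09, and 0 to 8 were higher with a replicate left out. Leaving out a library gave 15 to 22 higher and a median of 0.18 to 0.25. Of the 33 members 30 had a positive difference with TMM and 9 on the log2(TPM + 1) scale. Called genes below 0 on both TPM scales, leaving out Prosbeta3 at 0.00, were Prosalpha7 (-0.01), Rpn5 (-0.07), Rpn12 (-0.05), Rpn11 (-0.07), Rpn3 (-0.05), Rpt6 (-0.06), Rpn8 (-0.09), Rpn7 (-0.12), Prosalpha5 (-0.10), and Rpt4, not called, also turned (-0.25, or -0.26 with the smaller pseudocount). With a replicate left out, Rpt3 ran from -0.21 to 0.04 and Rpt5 from -0.09 to 0.03. DESeq2 called 2 members rhythmic in wild type at 25 °C and 1 in Clk-Jrk, against 103 of 9289 and 231 of 9288 genes. Core minus cap was 0.27, 0.26 and 0.44 in log2 CPM, which is not per length. The causes were not tested.

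Samples shared only a replicate number: deviations of same-numbered libraries correlated over 0.1 in 8 of 10 pairs between temperatures (-0.195 to 0.549) and in 1 of 6 between genotypes (-0.588 to 0.209). With the replicate number as a block, 11 members were higher at 18 °C and 20 in Clk-Jrk, against 2627 and 1831 of all 9289 genes. Members at few counts are limited by depth.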
